A study of Mus musculus with 9 samples.

Results

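Mitochondrial ribosomal protein genes were described in the livers of 9 mice. The members were all genes whose Entrez identifier maps to a mouse symbol beginning with Mrpl or Mrps and a digit, with pseudogenes left out. The rule found 78 genes of the 17846 in the files, 49 of them named for the large subunit (Mrpl) and 29 for the small subunit (Mrps). RefSeq held 84 matching symbols, of which 6 were pseudogenes. All 78 members had enough counts to be tested and are part of every count below. All mice were male, wild type and of the strain labelled C57/BL. The 3 Control mice received normal chow and stayed sedentary. The 3 NASH mice, whose livers model non-alcoholic steatohepatitis, received the Ath diet, which is rich in cholesterol and cholate, for 20 weeks and stayed sedentary as well. The 3 NASH+Exercise mice received the same diet, and after 12 weeks of it ran on a treadmill for 8 weeks, starting at 20 weeks of age. The study collected livers after an overnight fast, and each library is a mixture of all cells of a fasted liver. Cholate in the diet is itself toxic to the liver, and the model has no arm with exercise on normal chow.

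The mitochondrial ribosome translates the few proteins that mitochondrial DNA encodes, which are core subunits of the respiratory chain and of ATP synthase. Its RNAs come from mitochondrial DNA, but all of its proteins are encoded in the nucleus, made in the cytosol and imported. Some of them have a counterpart in the bacterial ribosome, and others were added in the mitochondrial lineage. The small subunit reads the mRNA, and the large subunit joins the amino acids and releases the new chain at the inner membrane. Hepatocytes are rich in mitochondria and use them for fatty acid oxidation, ketone synthesis and the urea cycle.

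The members lie on 17 chromosomes, with 11 of them on chromosome 11. Their transcript levels in TPM, a unit that divides reads by the length of the transcript and so lets genes be compared, spanned a wide range within each subunit. Among large subunit genes the mean over the 9 mice ran from 4.27 TPM for Mrpl19 to 161 TPM for Mrpl52, a 37.7-fold range with a median of 43.5 TPM. After Mrpl52, the highest large subunit levels were those of Mrpl12, the stalk protein that recruits translation factors, at 141 TPM and Mrpl14 at 112 TPM. Mrpl35, at 9.74 TPM, was the next lowest after Mrpl19. Small subunit genes ran from 6.59 TPM for Mrps25 to 128 TPM for Mrps21, a 19.4-fold range with a median of 32.7 TPM. Mrps24 and Mrps18b followed Mrps21, at 89.9 and 79.5 TPM, and Mrps11, at 18.3 TPM, was the next lowest. Between mice of a group, the coefficient of variation of TPM had a median of 7.55% over the members and reached 37.3%. The order of Mrpl52 and Mrpl12 was not the same in each group: in Control Mrpl52 stood at 150.4 ± 17.2 TPM and Mrpl12 at 165.4 ± 18.8 TPM (SD, n = 3), a gap within their spread. Many neighbours in the middle of the order also differed by less than the spread between mice. Counts of 19 members, 16 of them Mrpl genes, were not whole in any mouse (a count within 1e-06 of a whole number was taken as whole), which occurs when reads are divided among overlapping or similar transcripts. Those of 51 members were whole in every mouse.

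**Figure D1:**
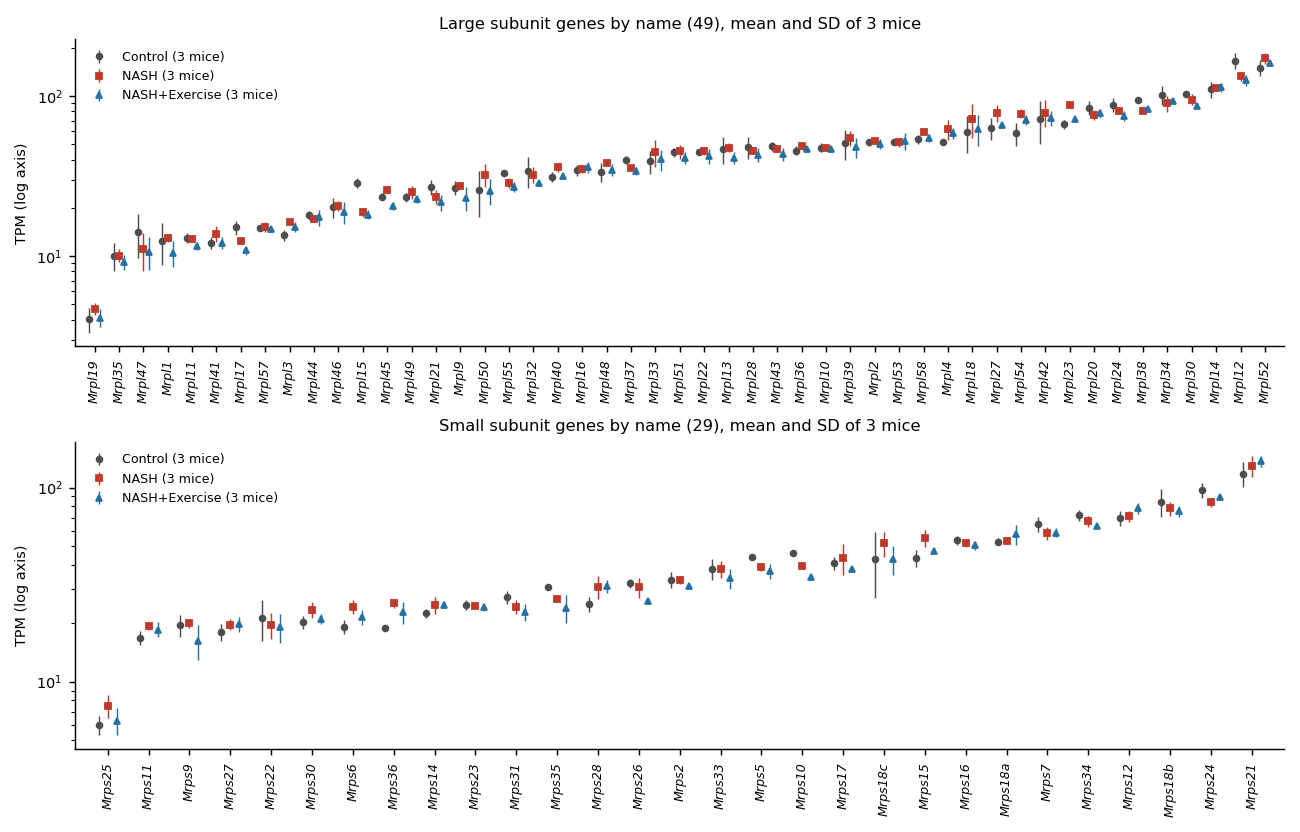
TPM (log axis) of the 49 large and 29 small subunit genes, each in order of its mean over 9 mice, with the mean of 3 mice as the point and their SD as the bar. Levels run from 4.27 (Mrpl19) to 161 (Mrpl52) in the large and from 6.59 (Mrps25) to 128 (Mrps21) in the small subunit, and the 3 groups lie close together relative to that range.

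RefSeq promoters, taken as the 250 bases before to 50 after a transcript start in the build GRCm38.p6, were at hand for 69 of the 78 members. They were searched on both strands for 3 motifs that are known from promoters of nuclear genes for mitochondria. CCGGAAG, the ETS motif bound by GABPA, stood in the promoters of 26 members (37.7%), against 9.93% of all RefSeq promoters and 18.7% of the genes tested here. GCGCATGC, the core of the NRF1 site, stood in 8 (11.6%, against 3.05% of all promoters and 5.57% of genes tested). AAGATGGC, the YY1 motif, stood in 12 (17.4%, against 3.19% and 4.95%). At least 1 of the 3 was present in 38 members (55.1%), against 14.9% of all promoters and 26.5% of genes tested. Promoters of cytosolic ribosomal protein genes reached much the same share, 54.8%, with the ETS motif in 40.3%, and those of the nuclear respiratory chain genes 46.3%. The share was 56.4% among the 39 members with a promoter that were lower in NASH by the test described below and 53.3% among the 30 that were not. The single motifs went different ways between these sets. The NRF1 core stood in 7 (17.9%) against 1 (3.33%), the YY1 motif in 12.8% against 23.3% and the ETS motif in 35.9% against 40.0%. These differences rest on few genes and were not tested. Promoters of 3 members, picked after their values were seen, are printed 5′ to 3′ up to the base before the start, with motif matches in capitals. Mrpl15, which had the largest fall in NASH, was not among the 69 members with a promoter. Mrpl17 (chr7:105811088-105811337, minus strand) holds an ETS match whose first base lies 237 bases before the start and an NRF1 match 11 bases before it. Mrps18a (chr17:46110754-46111003, plus strand) holds an ETS match 26 bases before the start. Mrpl12 (chr11:120484387-120484636, plus strand) holds none of the 3 in these 250 bases. The 50 bases after the start, which count in the shares above, are not printed, and matches there are not marked.
Mrpl17: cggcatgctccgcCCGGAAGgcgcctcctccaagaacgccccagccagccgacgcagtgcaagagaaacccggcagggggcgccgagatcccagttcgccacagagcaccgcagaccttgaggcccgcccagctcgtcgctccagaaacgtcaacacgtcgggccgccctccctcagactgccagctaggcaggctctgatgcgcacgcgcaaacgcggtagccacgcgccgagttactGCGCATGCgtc
Mrps18a: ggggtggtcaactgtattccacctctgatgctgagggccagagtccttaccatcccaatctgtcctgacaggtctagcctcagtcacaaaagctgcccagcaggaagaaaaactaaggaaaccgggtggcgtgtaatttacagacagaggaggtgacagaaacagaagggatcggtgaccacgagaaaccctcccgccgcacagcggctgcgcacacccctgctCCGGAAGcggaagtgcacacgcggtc
Mrpl12: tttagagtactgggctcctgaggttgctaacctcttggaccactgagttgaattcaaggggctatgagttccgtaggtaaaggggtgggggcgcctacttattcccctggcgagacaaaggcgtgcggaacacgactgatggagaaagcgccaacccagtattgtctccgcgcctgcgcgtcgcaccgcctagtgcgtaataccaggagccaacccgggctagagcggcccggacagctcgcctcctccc

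Library totals ran from 20085976 to 22495408 estimated counts, and the members together held 0.192 to 0.222% of them. The 12 hepatocyte markers summed to between 154528 and 186154 CPM (counts scaled to a common library size) in Control, against 105392 to 141173 in NASH and 128991 to 152541 in the trained mice. Markers of macrophages summed to between 97.2 and 180 CPM in Control, against 1190 to 1291 in NASH and 843 to 955 in the trained mice, and all 10 of them were higher in NASH than in Control (edgeR's quasi-likelihood test, Benjamini-Hochberg adjusted p under 0.05). Stellate cell markers summed to 151 to 274, 429 to 602 and 263 to 373 CPM in the same order of groups, with 5 of 8 higher in NASH by that test. Of the hepatocyte markers, 5 of 12 were lower by it, and 2 had a log2 fold change above 0. Higher by it were 7 of 7 T and NK cell, 6 of 8 neutrophil, 3 of 6 cholangiocyte, 4 of 7 sinusoidal endothelial and 0 of 4 B cell markers. Of all genes tested, 14.4% were lower and 21.2% higher. None of the markers of any cell type was at 0 in every mouse. The part of these other cells in the results below was not tested, and in bulk tissue fewer cells of a type and less RNA per cell cannot be told apart.

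How the libraries are scaled against each other decides the sign of the members' average change. The trimmed mean of M values (TMM), the scaling used here, set the median log2 fold change of the 13619 genes tested to 0.01 in NASH against Control. Library size alone put it at 0.36. The TPM fit kept 11942 genes by another filter and put their median at 0.35. Values given for all genes with TPM are over those 11942 genes. Relative to the median of all genes, the members' median was lower under each method. The difference between the medians was -0.43 under TMM, -0.42 with library size alone, -0.44 with DESeq2 size factors, -0.43 with upper quartile factors and -0.33 with TPM. All 78 members lay below the all-gene median under the first 4 of these scalings and 75 of 78 did so under TPM. The first 4 enter the same fit as a factor per library, which shifts all genes nearly alike. Their near-equal differences follow from that and are not separate evidence. Only TPM, with another unit, filter and fit, could differ by more, and its difference was smaller. Changes are given with TMM and are to be read as changes relative to the other genes of the liver.

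**Figure D2:**
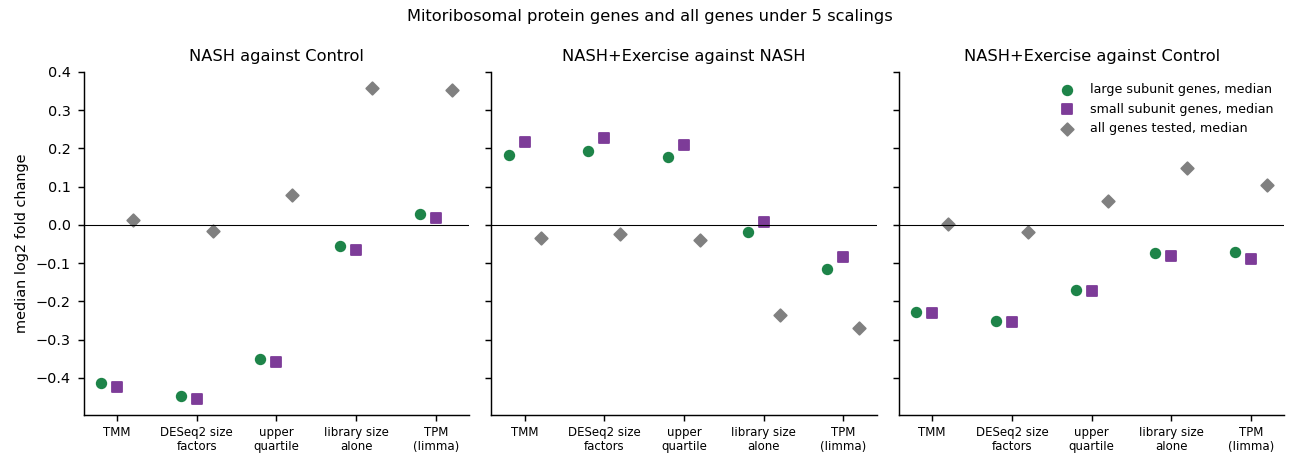
Median log2 fold change of large subunit genes (circles), small subunit genes (squares) and all genes tested (diamonds) under 5 scalings, for the 3 comparisons. The members' medians in NASH against Control go from -0.41 and -0.42 with TMM to 0.03 and 0.02 with TPM, while the gap to all genes changes less, and in NASH+Exercise against NASH they cross 0 the other way.

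The comparison of NASH with Control asked what the Ath diet did to these transcripts. Of the 78 members, 44 (56.4%, 28 of 49 large and 16 of 29 small subunit genes) were lower in NASH at an adjusted p under 0.05 (quasi-likelihood test of edgeR, Benjamini-Hochberg adjustment over all genes tested) and 0 were higher, against 14.4% of all genes tested that were lower and 21.2% that were higher. With library size alone the same count was 5 lower (Mrpl12, Mrpl15, Mrpl17, Mrpl38 and Mrps10) and 1 higher (Mrpl23), which is 6.41% lower against 4.65% of all genes and 1.28% higher against 33% of all genes. With limma on log2(TPM + 1) it was 3 lower (3.85%, against 4.19% of all genes) and 5 higher (6.41%, against 36.4%), so that with these scalings the share of members that were lower was near that of all genes. Every one of the 78 log2 fold changes was below 0 with TMM and with DESeq2 size factors, against 75 with upper quartile factors, 48 with library size alone and 32 with TPM. The median was -0.41 for the large and -0.42 for the small subunit with TMM (changes of -24.9% and -25.4%), within a range over the members from -1.07 to -0.03. In 59 members (39 large, 20 small) all 3 NASH mice lay below all 3 Control mice in CPM, against 22.2% of all genes tested. Leaving out 1 mouse at a time gave between 22 members (without NASH replicate 5) and 49 members (without Control replicate 29) past the threshold, with 27 without NASH replicate 19. The mice are separate animals, so the p-values measure the spread between mice.

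**Figure D3:**
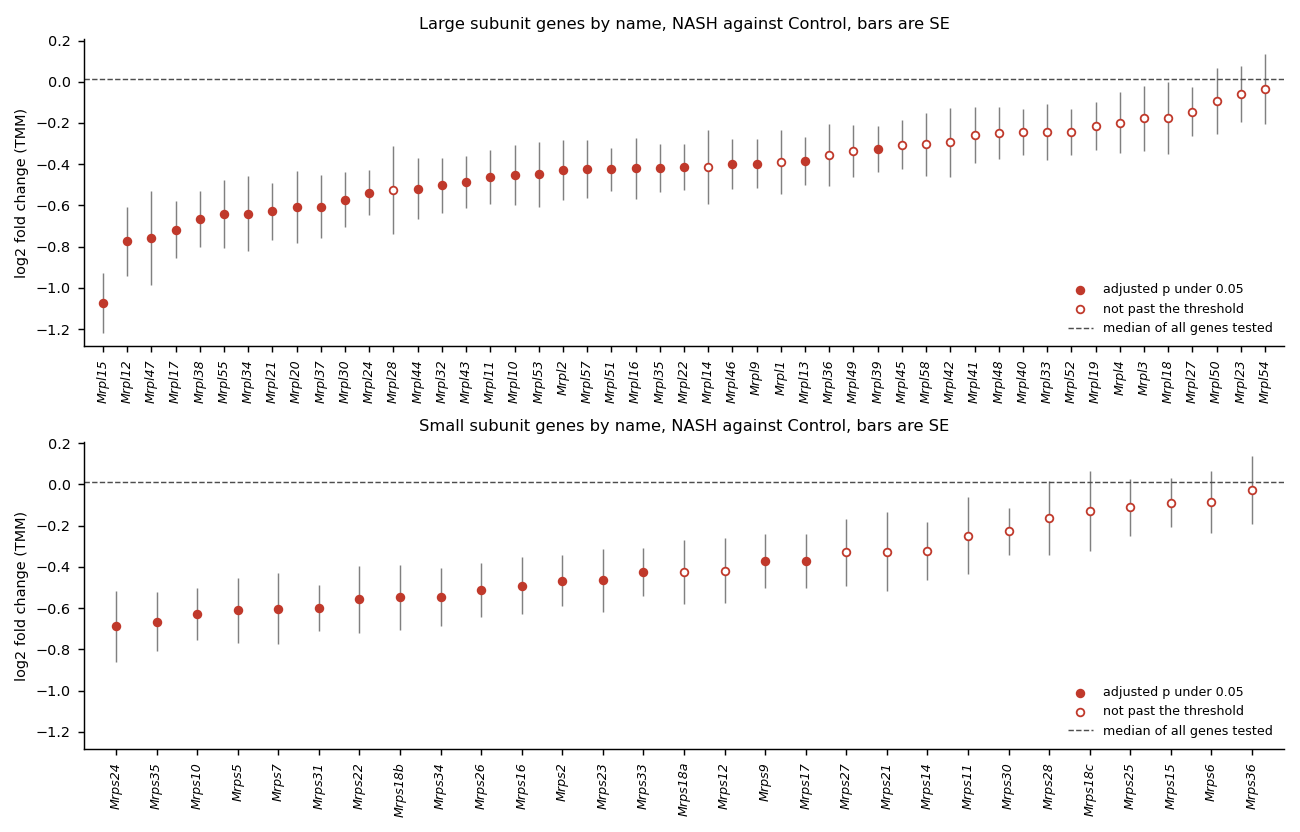
Log2 fold change with its SE (edgeR with TMM scaling, all 9 mice) of each member in NASH against Control, large subunit above and small subunit below, ordered by size. Filled points passed an adjusted p of 0.05. With this scaling every point is below 0 (48 of 78 are with library size alone), and Mrpl15 at -1.07 stands apart at the left end.

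Only Mrpl15, the counterpart of bacterial L15 in the large subunit, passed an adjusted p under 0.05 together with a log2 fold change under -1, which 3.03% of all genes tested did. Mrpl15 (Entrez 27395, chr1:4773198-4785750 in GRCm38.p6) measured 70.9, 83.7 and 57.2 CPM in Control replicates 3, 4 and 29. It measured 32.2, 32.6 and 36.0 CPM in NASH replicates 5, 19 and 20, and 38.6, 38.8 and 43.7 CPM in NASH+Exercise replicates 8, 18 and 22. The NASH and Control mice did not overlap, and the lowest Control mouse was well above the highest NASH mouse. The log2 fold change was -1.07 ± 0.14 (SE, n = 3 against 3, edgeR's quasi-likelihood test, Benjamini-Hochberg adjusted p = 0.000259). Counts of Mrpl15 were not whole in any mouse, so part of its reads was assigned by estimate. Per length, it fell from 28.6 ± 2.0 TPM in Control to 18.7 ± 1.2 TPM in NASH (SD, n = 3), and limma on log2(TPM + 1) gave a log2 fold change of -0.59 with a Benjamini-Hochberg adjusted p of 0.00201. Mrpl15 was 1 of 3 members, with Mrpl12 and Mrpl38, that were lower in NASH past the threshold under all 5 scalings.

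Mrpl12 forms the flexible stalk of the large subunit and is also known to bind the mitochondrial RNA polymerase. Its levels were 92.8, 136 and 88.7 CPM in Control, 58.6, 60.1 and 66.6 CPM in NASH and 69.2, 67.3 and 80.4 CPM in the trained mice. No NASH mouse reached the lowest Control mouse, and the log2 fold change was -0.77 ± 0.17 (edgeR's quasi-likelihood test, Benjamini-Hochberg adjusted p = 0.00453). Mrpl10 and Mrpl11, which hold the stalk at its base, fell less, with log2 fold changes of -0.45 ± 0.15 and -0.46 ± 0.13 (adjusted p = 0.0324 and 0.0181 by the same test). The printed Mrpl12 promoter was thus that of a member with a large change and no motif match in the printed bases before the start. Mrpl17 is a member with a large change and both an ETS and an NRF1 match there. Mrpl17, the counterpart of bacterial L17, measured 60.9, 81.0 and 66.8 CPM in Control, 43.1, 38.8 and 44.9 CPM in NASH and 41.9, 43.0 and 51.8 CPM in the trained mice. Its log2 fold change in NASH was -0.72 ± 0.14 (edgeR's quasi-likelihood test, adjusted p = 0.00252). Mrpl38, a protein of the large subunit without a bacterial counterpart, measured 90.8, 101 and 78.2 CPM in Control and 56.6, 53.6 and 59.9 CPM in NASH. These groups did not overlap either, with a log2 fold change of -0.67 ± 0.13 (edgeR's quasi-likelihood test, adjusted p = 0.00336). Mrpl47 was a low and variable member, at 8.86, 6.06 and 8.78 CPM in Control and 3.37, 5.2 and 5.44 CPM in NASH, and fell by 0.76 on the log2 scale (edgeR's quasi-likelihood test, adjusted p = 0.0242).

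**Figure D4:**
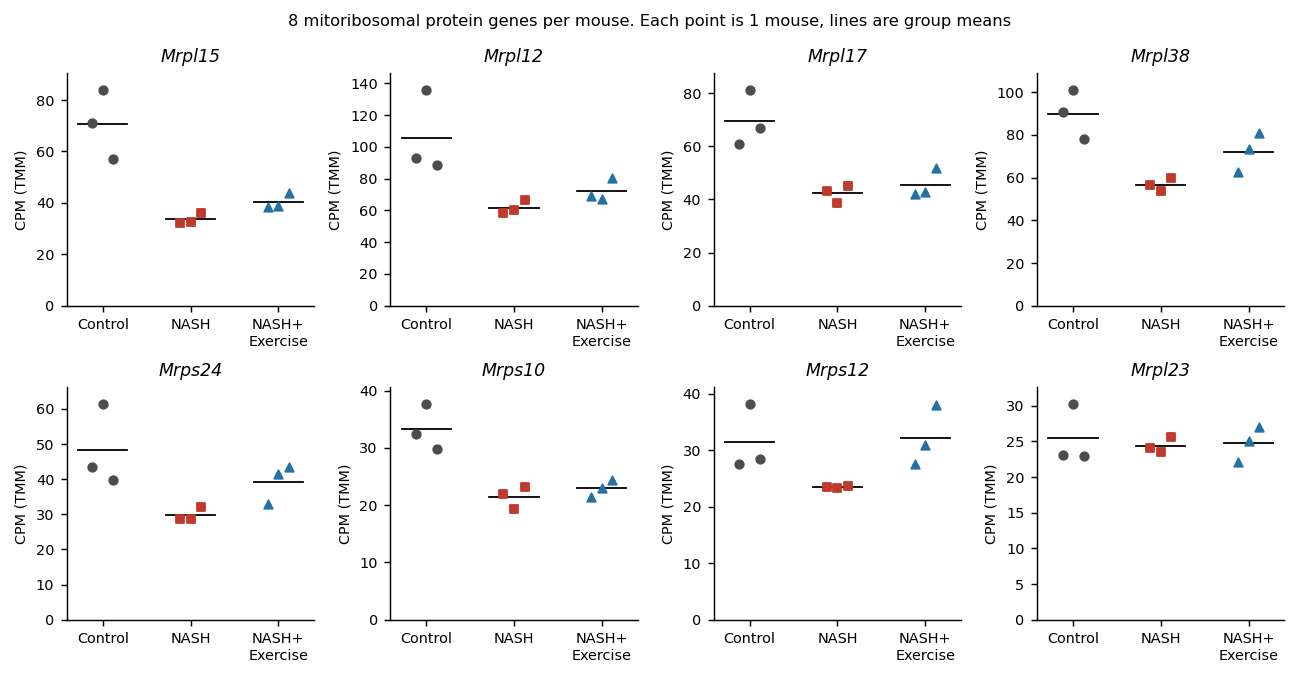
CPM with TMM scaling (vertical axes from 0) of 8 members in each of the 9 mice, with lines at the group means. NASH mice lie below Control mice without overlap in 7 of the 8 panels on this scale, and Mrpl23, whose groups overlap, is the exception. Mrps12 in NASH+Exercise lies back in the Control range, and Mrpl15, Mrpl12, Mrpl17 and Mrps10 stay below it.

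At the polypeptide exit site of the large subunit, Mrpl24 fell, at 53.2, 61.4 and 55.2 CPM in Control against 38.0, 37.4 and 41.6 CPM in NASH (log2 fold change -0.54 ± 0.11, edgeR's quasi-likelihood test, adjusted p = 0.00300). Mrpl23, its neighbour at the exit, measured 23.1, 30.2 and 22.9 CPM in Control and 24, 23.5 and 25.6 CPM in NASH, with overlapping groups (log2 fold change -0.06 ± 0.14, adjusted p = 0.777 by that test). With library size alone Mrpl23 had a log2 fold change of 0.30 and with TPM 0.39, both past the threshold in the upward direction. Mrpl45, which anchors the ribosome to the inner membrane, had a log2 fold change of -0.31 ± 0.12 that missed the threshold (edgeR's quasi-likelihood test, adjusted p = 0.0682). Of the other large subunit members with a known role, Mrpl44, which resembles RNase III, fell by 0.52 on the log2 scale (adjusted p = 0.0188 by edgeR's test). Mrpl58, a peptidyl-tRNA hydrolase built into the subunit, had a log2 fold change of -0.30 ± 0.15, Mrpl3 one of -0.18 ± 0.16 and Mrpl42 one of -0.29 ± 0.17, none past the threshold. Among the most and least abundant large subunit members, Mrpl35 fell by 0.42 (edgeR's quasi-likelihood test, adjusted p = 0.0175), whereas Mrpl52 (-0.24 ± 0.11), Mrpl14 (-0.41 ± 0.18) and Mrpl19 (-0.21 ± 0.12) did not pass. The sign of Mrpl35 turned with TPM, at 0.02.

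In the small subunit, the largest changes were those of Mrps24, Mrps35 and Mrps10. Mrps24, the counterpart of bacterial S3 at the mRNA entrance, measured 43.5, 61.3 and 39.7 CPM in Control, 28.7, 28.8 and 32.1 CPM in NASH and 33.0, 41.4 and 43.6 CPM in the trained mice. No NASH mouse reached a Control mouse, and the log2 fold change was -0.69 ± 0.17 (edgeR's quasi-likelihood test, adjusted p = 0.0103). Mrps35, without a bacterial counterpart, went from 21.7, 25.4 and 18.7 CPM to 14.3, 13.0 and 14.2 CPM, a log2 fold change of -0.67 ± 0.14 (adjusted p = 0.00442 by that test). Mrps10, the counterpart of bacterial S10, went from 32.5, 37.6 and 29.8 CPM to 22, 19.3 and 23.2 CPM (log2 fold change -0.63 ± 0.13, edgeR's quasi-likelihood test, adjusted p = 0.00317). Mrps5 and Mrps7, counterparts of bacterial S5 and S7, fell by 0.61 and 0.60 on the log2 scale (adjusted p = 0.0117 and 0.0194 by edgeR's test). Mrps16, Mrps22 and Mrps34, in each of which human mutations cause mitochondrial disease, fell by 0.49, 0.56 and 0.55 (adjusted p = 0.0185, 0.0211 and 0.0122 by edgeR's test). Mrps12, the counterpart of S12 at the decoding centre, measured 27.5, 38.1 and 28.5 CPM in Control and a narrow 23.5, 23.3 and 23.6 CPM in NASH. The groups did not overlap, but the adjusted p of 0.0597 missed the threshold (edgeR's quasi-likelihood test, log2 fold change -0.42 ± 0.16). The abundant Mrps21 (-0.33 ± 0.19) and the scarce Mrps25 (-0.11 ± 0.14) and Mrps11 (-0.25 ± 0.19) did not pass. Mrps11 and Mrpl46 overlap each other in the genome, and whether counting used the strand is not given in the sources used here, so these values are uncertain.

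Mrps18a, Mrps18b and Mrps18c are 3 relatives of bacterial S18 that sit at different places, Mrps18a in the large subunit and the others in the small. Mrps18b measured 47.2, 70.2 and 59.2 CPM in Control and 44.0, 38.3 and 38.5 CPM in NASH and fell by 0.55 on the log2 scale (edgeR's quasi-likelihood test, adjusted p = 0.0195). Mrps18a, at 28.3, 35.3 and 27.2 against 23.9, 20.8 and 23.1 CPM, did not overlap between groups but missed the threshold (log2 fold change -0.42 ± 0.16, adjusted p = 0.0554 by edgeR's test). Mrps18c ranged from 9.17 to 15.5 CPM within Control and its groups overlapped (log2 fold change -0.13 ± 0.20, adjusted p = 0.650 by edgeR's test). Whether the 3 genes differ from each other in their change was not tested. Mrps30, which also sits in the large subunit in spite of its name, had a log2 fold change of -0.23 ± 0.11 (not past the threshold). Mrps36 is now known as a subunit of the alpha-ketoglutarate dehydrogenase complex, and measured 9.02, 10.3 and 7.50 CPM in Control and 8.44, 8.50 and 9.39 CPM in NASH (-0.03 ± 0.17, not past the threshold). Sorting the genes by structure, with Mrps30 and Mrps18a in the large subunit and Mrps36 left out, gave 28 of 51 large and 16 of 26 small subunit genes lower in NASH, with medians of -0.41 and -0.44. By ancestry, 27 of the 47 members with a bacterial counterpart and 17 of the 31 without were lower past the threshold, with medians of -0.42 and -0.40. The ancestry classes were drawn up from general knowledge after the values were known.

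The share that a member takes of the members' summed CPM does not depend on the scaling, and it describes members relative to each other. The share of Mrpl15 was 2.97, 3.02 and 2.56% in Control and 1.84, 1.82 and 1.91% in NASH, and stayed at 2.0, 1.89 and 1.92% in NASH+Exercise. Mrpl23 went the other way, from 0.968, 1.09 and 1.02% in Control to 1.37, 1.32 and 1.36% in NASH, with 1.15, 1.22 and 1.19% in NASH+Exercise. Mrps36 took 0.377, 0.373 and 0.335% in Control and 0.482, 0.475 and 0.498% in NASH. In all, the 3 NASH mice lay outside the Control range on the high side for 17 members and on the low side for 11, as a description with no test, since shares of a fixed sum depend on each other. In NASH+Exercise against NASH the counts were 4 and 6. How many members would lie apart through the spread between mice alone was not worked out. These counts therefore do not tell whether any member moved.

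Summed over a subunit, TPM of the large subunit genes was 2345 ± 81.1 in Control, 2385 ± 155 in NASH and 2222 ± 83.0 in the trained mice (SD, n = 3). For the small subunit genes it was 1203 ± 26.7, 1214 ± 77.6 and 1172 ± 38.2. These sums overlapped between the groups on the TPM scale, where the median of the log2 fold changes of single genes was 0.35 in NASH against Control. In CPM with TMM scaling, the members summed to between 2238 and 2775 in Control, against 1751 to 1885 in NASH and 1932 to 2278 in the trained mice, so NASH lay below the other groups without overlap on that scale. The ratio of large to small subunit TPM needs no scaling between libraries, and was 1.97, 1.89 and 1.98 in Control replicates 3, 4 and 29. In NASH it was 1.97, 1.97 and 1.96, and in NASH+Exercise 1.93, 1.92 and 1.84. All 3 NASH+Exercise mice lay below all 3 NASH mice, within a difference of a few percent and with a Control mouse at the same level. A sum over the members was given no test.

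**Figure D5:**
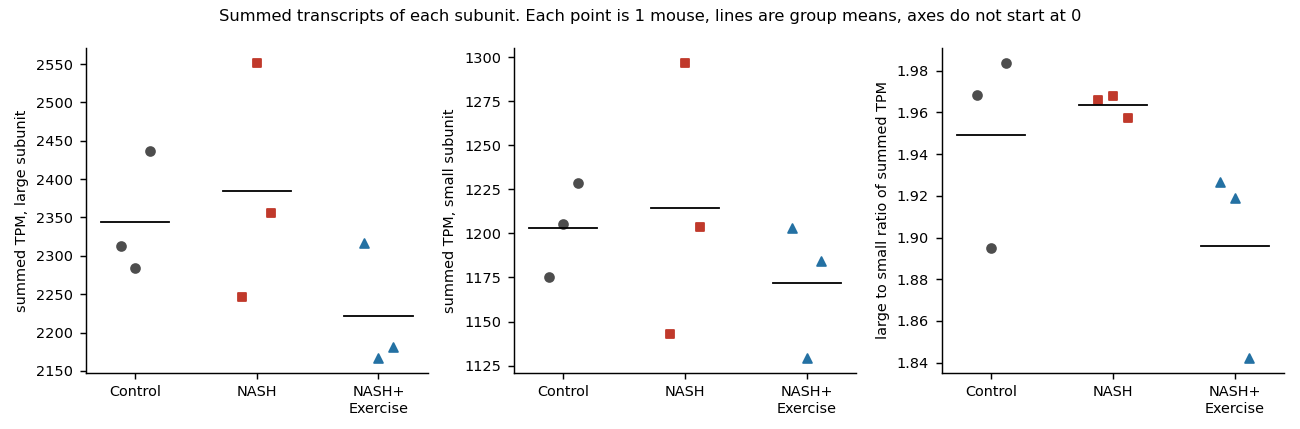
Summed TPM of large (left) and small subunit genes (middle) and the ratio of these sums (right) in each mouse, with lines at the group means and axes that do not start at 0. The sums overlap between groups, and the ratio is 1.84 to 1.93 in NASH+Exercise against 1.96 to 1.97 in NASH, with Control at 1.89 to 1.98.

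NASH+Exercise against NASH asked what treadmill training changed in mice on the same diet. No member passed an adjusted p under 0.05 (quasi-likelihood test of edgeR, Benjamini-Hochberg adjustment), in a comparison in which 0.162% of all genes tested did in either direction. DESeq2 with all 9 mice called 0 members as well. At an unadjusted p under 0.05 there were 6 members with edgeR, all higher with exercise (7.69%, against 4.6% of all genes tested that were higher). DESeq2 gave 5 (6.41%, against 3.8% of the 17807 genes in that fit). Fits of the 6 mice of this comparison alone gave 23 members with edgeR (29.5%, against 7.63% of 13478 genes). With DESeq2 they gave 18 (23.1%, against 6.19% of 17535 genes). All of these members were again higher, and 0 of them passed an adjusted p under 0.05. With TMM, 76 of 78 log2 fold changes were above 0, with a median of 0.18 for the large and 0.22 for the small subunit and of -0.03 for all genes tested, whereas 36 were above 0 with library size alone and 15 with TPM, where the medians of all genes were -0.23 and -0.27. Relative to the median of all genes, the members' median was 0.22 higher with TMM, 0.22 with library size alone and 0.16 with TPM. The values with TMM and with library size alone are nearly bound to be equal, as described above. In 30 members (19 large, 11 small) all 3 NASH+Exercise mice lay above all 3 NASH mice in CPM, against 9.16% of all genes tested. The NASH mice serve in this comparison and in that with Control, so that the values below stand beside those above and are not independent of them.

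The 6 members were Mrps12, Mrps18a, Mrps24, Mrpl38, Mrpl16 and Mrps14, the last of which falls outside the rule for named genes and was added after its values were seen. Mrps12 measured 27.6, 30.9 and 38.1 CPM in NASH+Exercise, above the 23.3 to 23.6 CPM of NASH and within the range of Control. Its log2 fold change of 0.45 ± 0.16 was the highest of the members, with an edgeR adjusted p of 0.228. Its share of the members' CPM was also higher in all 3 trained mice, at 1.43, 1.51 and 1.67% against 1.34, 1.30 and 1.25% in NASH. Mrps18a, whose promoter is printed above, measured 27.3, 26.4 and 36.4 CPM with exercise (log2 fold change 0.41 ± 0.15, adjusted p = 0.258 by edgeR's test). Mrps24 had a log2 fold change of 0.40 ± 0.17, Mrpl38 one of 0.35 ± 0.13, Mrpl16, the counterpart of bacterial L16, one of 0.35 ± 0.15 and Mrps14, the counterpart of S14, one of 0.32 ± 0.14. None of the 4 passed the adjusted threshold, with edgeR adjusted p between 0.267 and 0.315. At the other end, Mrpl45 (-0.03 ± 0.12) and Mrpl50, a protein without a bacterial counterpart (-0.04 ± 0.16), were the 2 members below 0 with TMM.

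NASH+Exercise against Control gives the distance that remained after training, and shares the Control mice with the first comparison. There, 10 members (12.8%, 6 large and 4 small) were lower at an adjusted p under 0.05 (quasi-likelihood test of edgeR, Benjamini-Hochberg adjustment), against 9.58% of all genes tested. The median log2 fold change was -0.23 in both subunits with TMM, and between -0.07 and -0.09 with library size alone or TPM. All 3 NASH+Exercise mice lay below all 3 Control mice in 26 members, against 17% of all genes tested. In this comparison the share of members that were lower past the threshold was thus near that of all genes. Leaving out 1 mouse gave 3 members without Control replicate 4 or NASH+Exercise replicate 18, 4 without Control replicate 3 or NASH+Exercise replicate 8, 6 without NASH replicate 19 and up to 11 otherwise.

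The 10 members were Mrpl15, Mrpl17, Mrpl12, Mrpl21, Mrpl30 and Mrpl24 in the large and Mrps10, Mrps35, Mrps26 and Mrps31 in the small subunit. Mrpl15 had the largest difference, a log2 fold change of -0.81 ± 0.14 (edgeR's quasi-likelihood test, adjusted p = 0.00212), with 38.6 to 43.7 CPM in the trained mice against 57.2 to 83.7 CPM in Control. Mrpl17 had -0.61 ± 0.14 and Mrps10 -0.54 ± 0.13 (adjusted p = 0.00856 and 0.0105 by edgeR's test). Mrpl15, Mrpl17 and Mrps10 were the members lower past the threshold in this comparison under all 5 scalings. Mrpl12, Mrps35 and Mrps26 had log2 fold changes of -0.55, -0.53 and -0.44 (adjusted p = 0.0333, 0.0193 and 0.0322 by edgeR's test), and Mrpl12 reached 0.0507 with upper quartile factors. In the upward direction no member passed, against 2118 of the 13619 genes tested. The members with the smallest p in that direction were Mrpl54 (0.15 ± 0.17), Mrpl3 (0.04 ± 0.16), Mrps28 (0.16 ± 0.18) and Mrps36 (0.12 ± 0.17).

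Other genes of mitochondrial translation, from lists drawn up with earlier results of these data known, are given here by counts and medians in NASH against Control with TMM. Beside these counts, 14.4% of all genes tested were lower past the threshold, with a median log2 fold change of 0.01. Of 5 mitoribosomal proteins with other names, Ptcd3, Aurkaip1, Chchd1 and Gadd45gip1 were lower past the threshold (quasi-likelihood test of edgeR, Benjamini-Hochberg adjustment), at log2 fold changes between -0.51 and -0.45, and Dap3 at -0.14 was not. Among factors for ribosome assembly, 8 of 28 were lower, with a median of -0.30, among them the GTPase Mtg1 (-0.58) and the chaperone C1qbp (-0.51). Translation factors had 7 of 16 lower and a median of -0.34, including the initiation factor Mtif3 (-0.68), the elongation factors Gfm1 (-0.74) and Tufm (-0.53), and Oxa1l (-0.49), which inserts the new chains into the membrane. The mitochondrial tRNA synthetases and their helpers had 4 of 20 lower (20.0%, near the share of all genes) and a median of -0.21. Of genes for transcription and copying of mitochondrial DNA 5 of 11 were lower, with Tfb2m at -0.73 and Tfam at -0.48. The regulators Ppargc1a (-0.18 ± 0.34), Nrf1 (-0.16 ± 0.13) and Gabpa (-0.30 ± 0.17) did not pass, Yy1 fell by 0.30 (adjusted p = 0.0435 by edgeR's test) and Myc rose by 0.73 (adjusted p = 0.0499), of which Myc alone passed with library size alone. With DESeq2 size factors Yy1 and Esrra were lower past the threshold and Myc did not pass. Nuclear genes of the respiratory chain had 70 of 78 lower and a median of -0.63, and 24 mitochondrial reference genes of other functions had 18 lower and a median of -0.55. Cytosolic ribosomal proteins had 8 of 80 lower and a median of -0.23. With library size alone, 34 of the 78 respiratory chain genes and 6 of the 24 reference genes were lower past the threshold. Only 1 translation factor (Gfm1) and 0 genes of the other 6 lists named here were lower, against 4.65% of all genes tested. On the other side, 8 cytosolic ribosomal proteins and 1 gene each of the assembly, translation factor and tRNA synthetase lists were higher. Of all genes tested, 33% were higher with this scaling, and their median was 0.36. The medians of assembly factors (0.05), translation factors (0.02), tRNA synthetases (0.15), regulators (0.18) and cytosolic ribosomal proteins (0.13) lay between 0 and that value. With exercise against NASH no gene of any of these lists passed the threshold (edgeR's quasi-likelihood test), and with TMM the medians lay between 0.00 (regulators) and 0.28 (respiratory chain), whereas library size alone put 8 of the 9 lists' medians between -0.20 and 0.02 and that of the respiratory chain at 0.07. The medians of all genes tested were -0.03 with TMM and -0.23 with library size alone. At an unadjusted p under 0.05, 18 of the 78 respiratory chain genes were higher with exercise, against 4.6% of all genes tested. Transcripts encoded by mitochondrial DNA itself were not analysed here.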

How the data were processed

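Liver mRNA of 9 mice was sequenced, with 1 library per mouse. For each gene the authors deposited estimated counts that were not normalized, together with TPM and FPKM values. Per the labels, HISAT2 2.1.0, Bowtie2 2.2.5, RSEM 1.2.8 and the genome GRCm38.p6 were used by the authors. The file of NASH replicate 5 held all 9 mice, and 0 of the 428304 values it shared with the other files differed. FPKM values deposited by the authors were not used. Estimated counts were rounded to whole numbers, filtered with filterByExpr (at least 10 counts, total 15), scaled by TMM and tested in 1 fit of all 9 mice with edgeR 4.0.16 (robust quasi-likelihood, 6 residual degrees of freedom) in R 4.3.3, with adjustment by Benjamini-Hochberg over the 13619 genes tested. The threshold was an adjusted p under 0.05, and the count under the study's own threshold, which adds an absolute log2 fold change above 1, is given beside it. DESeq2 1.42.0 and limma 3.58.1 on log2(TPM + 1) were alternatives. On simulated counts for NASH against Control (13619 genes, 200 changed), 0% of genes changed by a log2 fold of 0.5, 66% at 1 and 96.5% at 2 were recovered. The real comparison held many more changed genes, with 1960 called lower and 2886 called higher. Recovery with that many changed genes was not simulated, so these rates do not describe the members' calls. Library totals of the deposited counts were 20085976 to 22495408. Counts of a member in a mouse ran from 81 to 2438, a counting error of 11.1% to 2.03% with a median of 4.38% over members, beside a median coefficient of variation of 9.31% in CPM between mice of a group. Symbols, coordinates and promoters were taken from RefSeq tables of GRCm38.p6, in which 17728 of 17846 identifiers had a symbol, and overlapping genes from GENCODE vM21.

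The members and lists were chosen with earlier results of these data known. Genes are named by a rule: members past both thresholds, for each comparison and subunit the 3 largest significant changes in each direction (otherwise up to 2 with the smallest p), the 3 highest and 2 lowest in TPM per subunit, and 21 members with a known role. Lists were drawn up from general knowledge.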

Additional observations from a re-analysis of the deposited data

How the results depend on the processing

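In NASH against Control the count of members past the threshold was 44, and became 6 with library size alone, 8 with limma on log2(TPM + 1) or log2(TPM + 0.1) and 1 when an absolute log2 fold change above 1 was asked for. Without 1 mouse at a time it ran from 22 to 49. The medians of the large and small subunit were -0.056 and -0.0651 with library size alone, 0.0285 and 0.0183 with TPM + 1 and 0.0291 and 0.0187 with TPM + 0.1, and ran from -0.49 to -0.35 and from -0.53 to -0.35 without 1 mouse. With library size alone 30 of the 78 members were above 0, 1 of them called lower with TMM, and with TPM + 1 46 were, 13 of them called lower with TMM. Among members named by the rule, those that turned sign and passed the threshold in either fit were Mrpl16 (0.0214 and 0.022), Mrpl35 (0.0156 and 0.0184), Mrpl54 (0.41 and 0.42) and Mrps36 (0.40 and 0.42) with TPM + 1 and TPM + 0.1, and Mrpl23 with library size (0.30) and TPM (0.39). In NASH+Exercise against NASH the count was 0 under every alternative, with between 1 (library size alone) and 23 (edgeR on 6 mice) members at an unadjusted p under 0.05. The large subunit median was -0.0193 with library size and -0.11 and -0.12 with the TPM forms, that of the small subunit 0.0075, -0.0853 and -0.0864, and without 1 mouse they ran from 0.15 to 0.23 and 0.14 to 0.27. In NASH+Exercise against Control the count went from 10 to 6 with DESeq2 on 6 mice, 4 with edgeR on 6 mice, library size alone, upper quartile factors or either form of TPM, and 0 with the fold threshold, and ran from 3 to 11 without 1 mouse. The medians there were -0.0739 and -0.0806 with library size, -0.0699 and -0.09 with TPM + 1 and -0.0709 and -0.0915 with TPM + 0.1, and ran from -0.27 to -0.13 and -0.29 to -0.0608 without 1 mouse, both nearest to 0 without Control replicate 4. The move under library size and TPM comes with a shift of the median of all genes, which the report gives, and its cause was not tested. An added comparison of each value with the median of all genes was chosen after seeing the data. No paired analysis was possible because the groups share no replicate numbers.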

Other observations

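Members often share a start region with another gene. Of the 78, 18 (23.1%) have another coding gene that starts within 1000 bases on the opposite strand, head to head, against 6.78% of the 21951 coding genes of GENCODE vM21. All 18 partners were tested, and in NASH against Control 7 were lower and 1 higher at an adjusted p under 0.05 (quasi-likelihood test of edgeR, Benjamini-Hochberg adjustment), against 14.4% and 21.2% of all genes tested, with a median log2 fold change of -0.30 with TMM. Sars2, the mitochondrial serine tRNA synthetase 172 bases from Mrps12, had a log2 fold change of -0.43 beside -0.42 for Mrps12. Eme2, a DNA repair gene 29 bases from Mrps34, had -0.70 beside -0.55, and Fau, a precursor of a cytosolic ribosomal protein 59 bases from Mrpl49, had -0.54 beside -0.34. Pairs also went apart: Apba3 fell by 0.63 while Mrpl54, 26 bases away, stood at -0.04, and Ncapd2, a condensin subunit 100 bases from Mrpl51, rose by 0.92 while Mrpl51 fell by 0.42. Exons of 28 members overlap a gene on the opposite strand and those of 8 a gene on the same strand. Reads of the first kind of pair cannot be told apart without the strand, and reads of the shared exons of the second kind not even with it. Of the 44 members lower in NASH, 27 overlap no other gene, against 45 of all 78 members. Mrpl12, Mrps24 and Mrpl47, named above for large changes, are among those with an overlap, as are Mrpl24, Mrps7, Mrps18b and Mrps34. Mrps24 shares exon bases with Urgcp on the same strand. Mrpl12 overlaps Gm16755, and Mrpl47 overlaps Actl6a and Ndufb5, on the opposite strand.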
